A study of Mus musculus with 4 samples.

Results

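The genes for the EGFR receptor family, the ligands of EGFR and the receptor Met were followed in MC38 cells, a mouse colon carcinoma line, under IFN-γ and low oxygen. Members were chosen by name: the rows of the count table whose NCBI gene ID belongs to the receptors Egfr, Erbb2, Erbb3 and Met or to the ligands Areg, Ereg, Hbegf, Tgfa, Btc and Epgn, which are 10 of 27179 genes. The rule uses no measured value, but the members and the pathway lists below were chosen with earlier results of these data known. Of the 10, 8 passed the filter on low counts and were tested among 13580 genes, while Tgfa and Epgn did not pass it. All 4 groups were wild-type MC38 cells with 1 library each: untreated cells at 20% oxygen (control, normoxia), untreated cells at 1.5% oxygen (control, hypoxia), cells given IFN-γ at 20% oxygen (IFN-γ, normoxia) and cells given IFN-γ at 1.5% oxygen (IFN-γ, hypoxia). The methods give 5 ng/mL for 24 h as the IFN-γ treatment of most experiments, and name comparisons of dose and time as exceptions. They do not name this treatment for the sequencing, and they do not give the time under hypoxia. The libraries held poly-A RNA with strand kept, and their counts summed to 34302971, 34514248, 34537939 and 34420642 in the order above, which is the order of every set of 4 values below.

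EGFR, ErbB2 and ErbB3 are receptor tyrosine kinases that pair with each other at the cell surface and signal through the RAS-ERK and PI3K-AKT routes, and Met is the receptor for hepatocyte growth factor and feeds the same routes. EGFR ligands are made as membrane proteins and are cut loose by sheddases such as ADAM17, while ErbB2 has no known ligand and ErbB3 has little kinase activity of its own and binds neuregulins. In the intestine these ligands drive epithelial growth and repair, and EGFR and Met are often active in colon cancer.

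The labelled cell type was checked against marker genes. Of 12 colon epithelial markers, 6 had over 3 counts in any library, and their summed counts were 132, 122, 115 and 112. The most abundant was Krt8 with 90, 56, 56 and 48 counts, whereas Cdh1, Cdx1, Cdx2 and Cldn7 had 0 counts in all 4 libraries and Epcam had 2 counts in the first and 0 in the others. Defining epithelial markers were thus absent or near 0, and the cells are called MC38 cells here. Of 8 mesenchymal markers, 7 had over 3 counts, with summed counts of 84799, 86145, 78606 and 78769, most of them from Vim. Thy1 was at 0, and Col1a1, Dcn and Pdgfrb had 29 to 93 counts, near the range of Krt8. Col1a2 had 76 to 105, and Col3a1 and Pdgfra had 1077 or more. Of 8 immune markers, 2 had over 3 counts. These were Cd68 with 209, 236, 212 and 170 counts and Ptprc with at most 12, while Cd8a, Adgre1, Itgam and Ncr1 were at 0, and the summed counts of the list were 220, 243, 225 and 173. For 4 endothelial markers the summed counts were 54, 54, 31 and 50, most of them from Cdh5, and Kdr was at 0. Both treatments were visible in the counts: the IFN-γ target Irf1 had 3770, 4422, 20118 and 23759 counts and the hypoxia target Car9 had 422, 1733, 324 and 1536. All 4 IFN-γ check genes rose with IFN-γ and all 4 hypoxia check genes rose with hypoxia in the edgeR fit (each adjusted p under 0.05). Among the mesenchymal markers Col3a1 fell with IFN-γ (log2 change -0.39, adjusted p = 1.98e-07 by edgeR). In bulk RNA, fewer cells that express a gene and less RNA per cell cannot be told apart.

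Each gene was tested by edgeR (quasi-likelihood F test) with 1 term for oxygen and 1 for IFN-γ, added together, over all 4 libraries, and p-values were adjusted by Benjamini-Hochberg over all 13580 genes. No condition has a replicate, so the spread in this model is each gene's departure from additivity, with 1 residual degree of freedom per gene, and its p-values do not stand for replicate cultures. Called below means an adjusted p under 0.05. A single-pair change is the log2 ratio of TMM-normalised CPM (counts scaled to library size) of 2 libraries with 0.5 counts added, with a 95% Clopper-Pearson interval that covers counting error only. Low counts in this table were more often even than odd: of genes with 1 to 20 counts, between 63.2% and 64.8% had an even count, against 50.5% to 51.3% of genes over 100 counts. The sources used here do not say whether both mates of a read pair were counted, so each interval was also computed on counts divided by 2, a choice made after seeing the data. The wider interval is given below unless the text says otherwise.

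No member was called with either stimulus. With IFN-γ, 0 of 8 tested members were raised, beside 4.76% of all tested genes, and 0 of 8 were lowered, beside 1.1%. With hypoxia, 0 of 8 were raised, beside 8.21%, and 0 of 8 were lowered, beside 6.83%. At an unadjusted p under 0.05 the same edgeR fit gave Btc upward and Erbb3 downward with IFN-γ, and Areg upward and Egfr downward with hypoxia. That is 2 of 8 members with each stimulus (25%), beside 14% of all tested genes with IFN-γ and 26.5% with hypoxia at the same threshold, so the hypoxia count was at the share of all genes. The IFN-γ count was 1 of 8, Btc without Erbb3, in 4 of the 6 alternative edgeR fits. DESeq2's Wald test called 0 members and gave 0 at an unadjusted p under 0.05 for either stimulus, with an adjusted p for 9 members with IFN-γ and 6 with hypoxia. The median log2 change of the 8 members was 0.02 with IFN-γ, beside -0.01 over all tested genes, and -0.06 with hypoxia, beside 0.00 over all tested genes. The median size of the change, sign left aside, was 0.04 with IFN-γ and 0.14 with hypoxia, beside 0.08 and 0.12 over all tested genes. These counts do not show that the members stayed the same, and the intervals below give the range each pair of libraries allows.

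Levels were compared between genes as CPM per kb of the longest annotated coding transcript. The mean over the 4 libraries was 11.4 CPM per kb for Erbb2, 10.9 for Areg, 7.01 for Hbegf, 5.25 for Met, 3.17 for Ereg, 1.88 for Erbb3, 0.657 for Btc, 0.314 for Egfr and 0.0785 for Epgn, and Tgfa had no count. Erbb2 and Areg, the first and second in this order, did not keep it: Areg lay above Erbb2 in 2 of 4 libraries. From Areg down to Btc, the interval of the ratio between neighbours excluded 1 in all 4 libraries, but between Btc and Egfr it did so in 2 and between Egfr and Epgn in 3. Among 12179 tested genes with a length, Erbb2 lay between percentiles 54.01 and 55.19 and Egfr between 6.46 and 9.75. Among the 4 receptor members, EGFR itself thus had the lowest mRNA level, near the bottom of the tested genes. The order depends on the length used for Met and Egfr, since with the mean transcript length Met had 12.1 CPM per kb, the highest of the 10, and Egfr had 0.707, above Btc. 

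**Figure D1:**
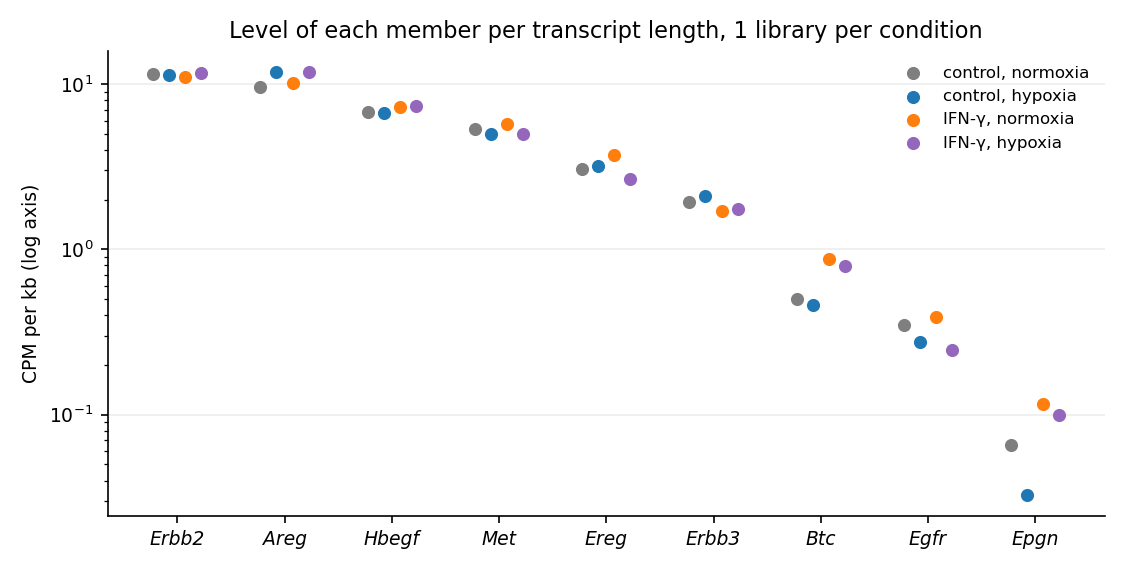
Level of each member in CPM per kb of the longest coding transcript (log axis), with 1 point per library and members ordered by their mean. Tgfa, at 0 counts in all 4 libraries, is not drawn. Mean levels run from 11.4 CPM per kb for Erbb2 to 0.0785 for Epgn. The 4 points of each gene lie close together except for Btc, Egfr and Epgn.

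The members lie on 5 chromosomes of the mouse genome (RefSeq positions, build GRCm38.p6, the sequence of the mm10 build that the submitters' processing notes name). Of the receptors, Egfr (gene 13649) lies at chr11:16752203-16913907, Erbb2 (gene 13866) at chr11:98412484-98437716, Erbb3 (gene 13867) at chr10:128567523-128589635 and Met (gene 17295) at chr6:17463349-17573980. Of the ligands, 4 form a cluster within 375478 bases of chromosome 5: Epgn (gene 71920) at chr5:91027517-91035212, Ereg (gene 13874) at chr5:91074617-91093649, Areg (gene 11839) at chr5:91139599-91148432 and Btc (gene 12223) at chr5:91357261-91402994. No other protein-coding gene is annotated between Epgn and Btc. Tgfa (gene 21802) lies at chr6:86195038-86275744 and Hbegf (gene 15200) at chr18:36504927-36515805. The exons of 7 members overlap no other annotated gene. The other 3 overlap a gene on the opposite strand, Ereg over 3.42% of its exon bases (Gm19610), Tgfa over 1.82% (Gm43917) and Erbb2 over 0.173% (Mien1), and the strand setting of the counting is not given in the sources used here. Ereg also shared the most sequence with other genes, 2.95% of its 31-base words.

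Egfr had 123 counts in the control library under normoxia, 97 under hypoxia, 136 with IFN-γ under normoxia and 86 with both. Both hypoxic libraries were below both normoxic ones. Such an order, given below also for Erbb3, Met, Btc and Areg, is a description only. The share of all tested genes with it was not counted. The single-pair log2 change with hypoxia was -0.34 without IFN-γ (95% interval -0.91 to 0.23) and -0.66 with IFN-γ (95% interval -1.25 to -0.09). In the additive fit Egfr changed by -0.50 (standard error 0.211, adjusted p = 0.0921 by edgeR, 0.104 to 0.278 over 6 alternative fits), which did not pass the threshold. With IFN-γ the 2 pairs of Egfr went opposite ways, 0.16 under normoxia and -0.16 under hypoxia, and both intervals included 0.

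Erbb2, the receptor that pairs with the other family members without a ligand, had 1997, 1962, 1897 and 1992 counts. No library stood apart, and the highest level was 1.05 times the lowest. In each of the 4 single pairs that differ in 1 stimulus, the interval of the log2 change of Erbb2 lay between -0.19 and 0.20. The mRNA with the most receptor counts was thus also the one with the narrowest intervals.

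Erbb3 had 405, 440, 352 and 361 counts. Both IFN-γ libraries were below both control libraries. Its log2 change with IFN-γ was -0.19 under normoxia (95% interval -0.49 to 0.11) and -0.27 under hypoxia (95% interval -0.56 to 0.02), and -0.23 over both pairs (standard error 0.117, adjusted p = 0.355 by edgeR, 0.293 to 1 over 7 alternative fits). With hypoxia it changed by 0.08 in the same fit (standard error 0.117).

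Met had 1256, 1172, 1331 and 1160 counts. As for Egfr, both hypoxic libraries were below both normoxic ones. The log2 change of Met with hypoxia was -0.10 without IFN-γ (95% interval -0.26 to 0.07) and -0.20 with IFN-γ (95% interval -0.36 to -0.03). The additive fit gave -0.15 (standard error 0.0779, adjusted p = 0.209 by edgeR), and its change with IFN-γ was 0.05 (standard error 0.0778). Together the 4 receptors held 109, 106, 108 and 105 CPM, with Erbb2 at 51.0% to 55.3% and Met at 31.9% to 35.8% of their counts.

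**Figure D2:**
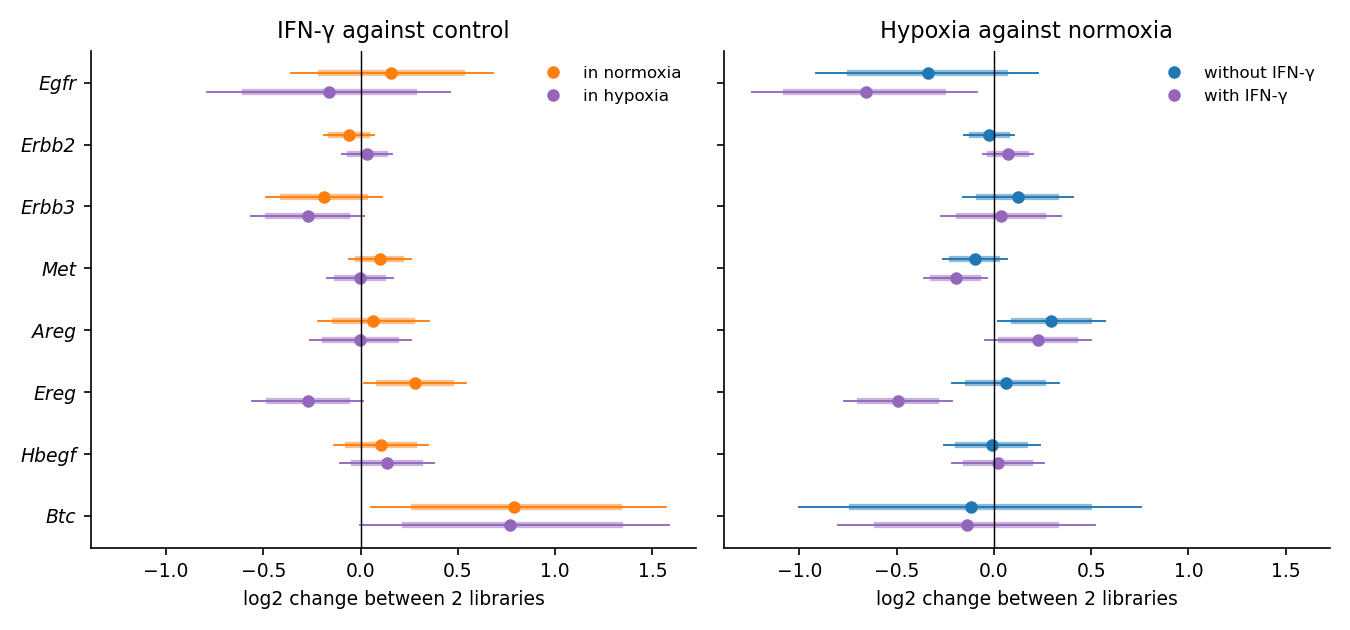
Log2 change of each tested member between 2 libraries, for IFN-γ against control (left) and hypoxia against normoxia (right); thick lines are 95% Clopper-Pearson intervals on the counts and thin lines the same on counts divided by 2. Both kinds of line cover counting error only, and no member was called in the additive fit. The 2 IFN-γ changes of Ereg point opposite ways.

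Btc encodes betacellulin, which binds EGFR and ErbB4. It had 50, 46, 86 and 78 counts. The IFN-γ libraries were above the control libraries in both pairs. With IFN-γ it changed by 0.79 on the log2 scale under normoxia (95% interval 0.05 to 1.57) and 0.77 under hypoxia (95% interval -0.0047 to 1.59), so the second interval just included 0. The additive fit gave 0.78 (standard error 0.278, adjusted p = 0.0731 by edgeR, 0.0898 to 1 over 7 alternative fits). This was the largest fitted change of a member in size, it did not pass the threshold in any of these fits, and it rests on fewer than 100 counts per library. The hypoxia change of Btc was -0.13 (standard error 0.276).

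Areg encodes amphiregulin, a ligand of EGFR alone, and had 406, 497, 421 and 492 counts. Both hypoxic libraries were above both normoxic ones. The log2 change with hypoxia was 0.29 without IFN-γ (95% interval 0.02 to 0.57) and 0.23 with IFN-γ (95% interval -0.05 to 0.50). Over both pairs Areg changed by 0.26 (standard error 0.11, adjusted p = 0.0939 by edgeR, 0.105 to 0.669 over 7 alternative fits). With IFN-γ it changed by 0.03 (standard error 0.11).

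Ereg encodes epiregulin, a ligand of EGFR and ErbB4, and is the neighbour of Areg, 45949 bases away. It had 440, 458, 529 and 376 counts, highest with IFN-γ under normoxia and lowest with IFN-γ under hypoxia. With IFN-γ the log2 change was 0.28 under normoxia (95% interval 0.02 to 0.54) and -0.27 under hypoxia (95% interval -0.56 to 0.01). With hypoxia it was 0.06 without IFN-γ (95% interval -0.21 to 0.33) and -0.49 with IFN-γ (95% interval -0.77 to -0.22). The additive fit averages these to 0.01 with IFN-γ (standard error 0.111) and -0.21 with hypoxia (standard error 0.111, adjusted p = 0.196 by edgeR), and the IFN-γ value was -0.0048 with total counts in place of TMM. Areg had nearly equal counts in its 2 hypoxic libraries, 497 and 492, where Ereg had 458 and 376.

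The difference between the IFN-γ changes, hypoxic minus normoxic, was -0.55 for Ereg, with a 95% Poisson interval of -0.93 to -0.17. Of the 10443 tested genes whose lowest library had 100 counts or more, 1.45% had a difference at least as large in size. For the other 7 tested members the difference ran from -0.32 for Egfr to 0.09 for Erbb2, and each interval included 0. With 1 library per condition, none of these differences could be tested.

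Hbegf encodes heparin-binding EGF-like growth factor and had 554, 549, 590 and 598 counts. No library stood apart, with a highest level 1.10 times the lowest. Its log2 change was 0.12 with IFN-γ and 0.01 with hypoxia (standard error 0.0998 for both), and the sign of the second turned in the fit without a filter on low counts. Epgn, the gene for epigen, had 4, 2, 7 and 6 counts, so that only a very large change would have been detectable: its log2 change with IFN-γ under normoxia was 0.75 with an interval of -2.12 to 4.34. Tgfa, the gene for TGF-α, had 0 counts in every library, below a floor of 3 counts that corresponds to at most 0.0876 CPM.

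The 6 ligands together had 1454, 1552, 1633 and 1550 counts, or 42.0, 44.9, 47.6 and 45.3 CPM. Hbegf, Ereg and Areg made up nearly all of them in every library. Hbegf took 38.1%, 35.4%, 36.1% and 38.6% of the ligand counts. Ereg took 30.3% (95% Wilson interval 27.0% to 33.7%, on counts divided by 2), 29.5% (26.4% to 32.8%), 32.4% (29.2% to 35.6%) and 24.3% (21.4% to 27.4%). Its share was lowest with IFN-γ under hypoxia and highest with IFN-γ under normoxia. These shares rest on the same Ereg counts as the changes above, and their intervals cover counting error only. Areg took 27.9%, 32.0%, 25.8% and 31.7%, the larger shares in both hypoxic libraries. Btc took 3.44%, 2.96%, 5.27% and 5.03%, the larger shares in both IFN-γ libraries. For Tgfa, the 0 counts leave a Wilson upper limit of at most 0.526% of the ligand counts.

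**Figure D3:**
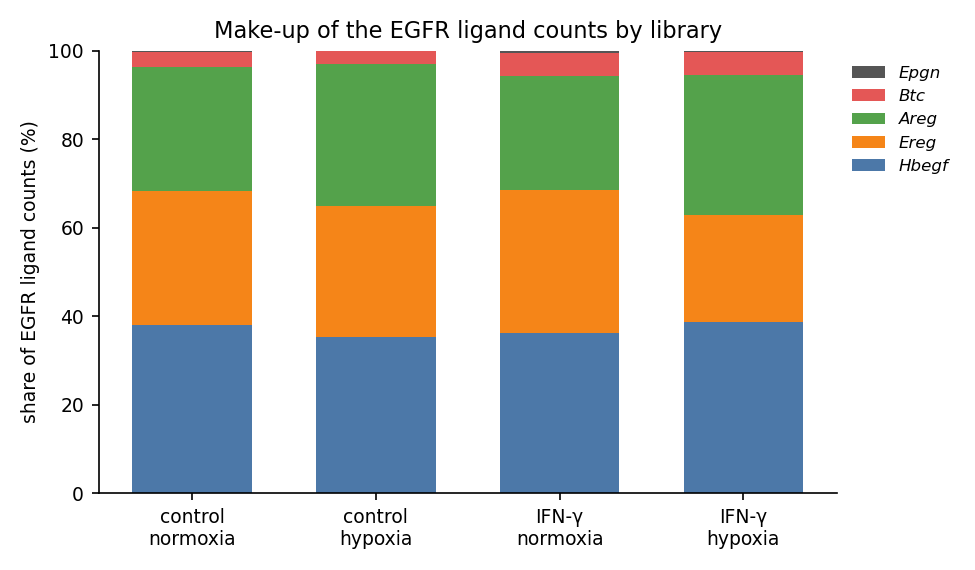
Share of each ligand in the summed counts of the 6 EGFR ligands (%), with 1 bar per library; Tgfa has 0 counts. Ereg stands at 32.4% with IFN-γ under normoxia and at 24.3% with IFN-γ under hypoxia, and Btc stands at 5.27% and 5.03% in the IFN-γ libraries against 3.44% and 2.96% in the controls.

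Promoters are shown for the members with an unadjusted p under 0.05 and an entry in the RefSeq promoter table (Egfr, Areg and Btc). The choice was made after the values were seen. The table matched 7 of 10 members, and has none for Ereg, Erbb3 and Hbegf. For Met and Tgfa its start lies 608 and 184 bases inside the gene span given above, so their windows are not, or not wholly, upstream of the gene and are not described. Both strands of the window from 250 bases before to 50 bases after the start were searched for ACGTG and GCGTG (cores of hypoxia response elements), TTCNNNGAA (the gamma-activated site) and TGANTCA (the AP-1 site). The 250 bases before the start are printed, 5′ to 3′ on the gene's strand (build GRCm38.p6), with matches in capitals.
Egfr, chr11:16751953-16752202, plus strand: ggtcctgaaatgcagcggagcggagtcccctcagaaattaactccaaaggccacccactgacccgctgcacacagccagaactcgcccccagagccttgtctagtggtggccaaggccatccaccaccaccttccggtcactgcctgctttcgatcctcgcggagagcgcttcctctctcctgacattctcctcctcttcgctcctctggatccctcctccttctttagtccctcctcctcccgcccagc
Areg, chr5:91139349-91139598, plus strand: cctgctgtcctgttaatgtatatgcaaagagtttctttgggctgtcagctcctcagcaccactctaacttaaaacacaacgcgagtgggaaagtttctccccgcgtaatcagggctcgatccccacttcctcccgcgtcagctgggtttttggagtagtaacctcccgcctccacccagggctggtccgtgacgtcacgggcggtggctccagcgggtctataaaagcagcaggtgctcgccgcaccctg
Btc, chr5:91402995-91403244, minus strand: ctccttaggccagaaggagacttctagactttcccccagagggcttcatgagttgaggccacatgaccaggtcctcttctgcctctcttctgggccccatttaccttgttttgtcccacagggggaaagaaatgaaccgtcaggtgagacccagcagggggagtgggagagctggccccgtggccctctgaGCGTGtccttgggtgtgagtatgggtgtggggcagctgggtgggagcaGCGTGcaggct

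Egfr and Areg, which had an unadjusted p under 0.05 with hypoxia by edgeR, held none of the 4 motifs in the window. A link between motifs and changes was not tested. Btc held GCGTG at 2 places, the first starting 59 bases and the second 11 bases before the start. Erbb2 held GCGTG once within the 50 bases after the start, and Epgn none of the 4. Over 32851 promoters of the same length, 19.6% held ACGTG, 32.4% GCGTG, 8.30% TTCNNNGAA and 7.81% TGANTCA, so these matches are common. A match describes letters in the window and is not a bound site.

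Of the 9 other family genes, 6 were tested and 0 were called in either direction with either stimulus. Of all tested genes, 5.86% were called with IFN-γ and 15.04% with hypoxia. At an unadjusted p under 0.05, edgeR gave Nrg2 downward with IFN-γ and Mst1 upward with hypoxia. That is 1 of 6 with each stimulus (16.7%), beside 14% of all tested genes with IFN-γ and 26.5% with hypoxia. Mst1, which encodes a ligand of the Met relative Ron, had 571, 678, 501 and 586 counts, a log2 change with hypoxia of 0.24 (standard error 0.0992, adjusted p = 0.0851 by edgeR). Its receptor gene Mst1r had at most 3 counts in any library. The neuregulin gene Nrg2 had 220, 221, 177 and 163 counts, the lower pair with IFN-γ, and a log2 change of -0.36 (adjusted p = 0.229 by edgeR). Nrg1 had 122 to 170 counts, Nrg4 15 to 43, Egf 118 to 134 and Hgf, which encodes the ligand of Met, 76 to 96. Erbb4 and Nrg3 had 0 counts in all 4 libraries, so Erbb4 mRNA was not detected at this depth.

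Around the members, 131 genes of the pathway were followed in 6 lists, counted without the members, and 120 of them were tested. IFN-γ raised 6 and lowered 0 of them, and DESeq2 raised 3 (2.42%, beside 2.29% of all genes it tested). Hypoxia raised 13 and lowered 10, while the edgeR fit without the IFN-γ term raised 2 and lowered 0 (1.67%, beside 1.3% of all tested genes). In all 5% of the pathway genes were called with IFN-γ and 19.2% with hypoxia, beside 5.86% and 15.04% of all tested genes. At an unadjusted p under 0.05, edgeR gave 23 of the 120 with IFN-γ (19.2%, beside 14% of all tested genes) and 40 with hypoxia (33.3%, beside 26.5%). Their median log2 change was 0.01 with IFN-γ and 0.02 with hypoxia, beside -0.01 and 0.00 over all tested genes.

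**Figure D4:**
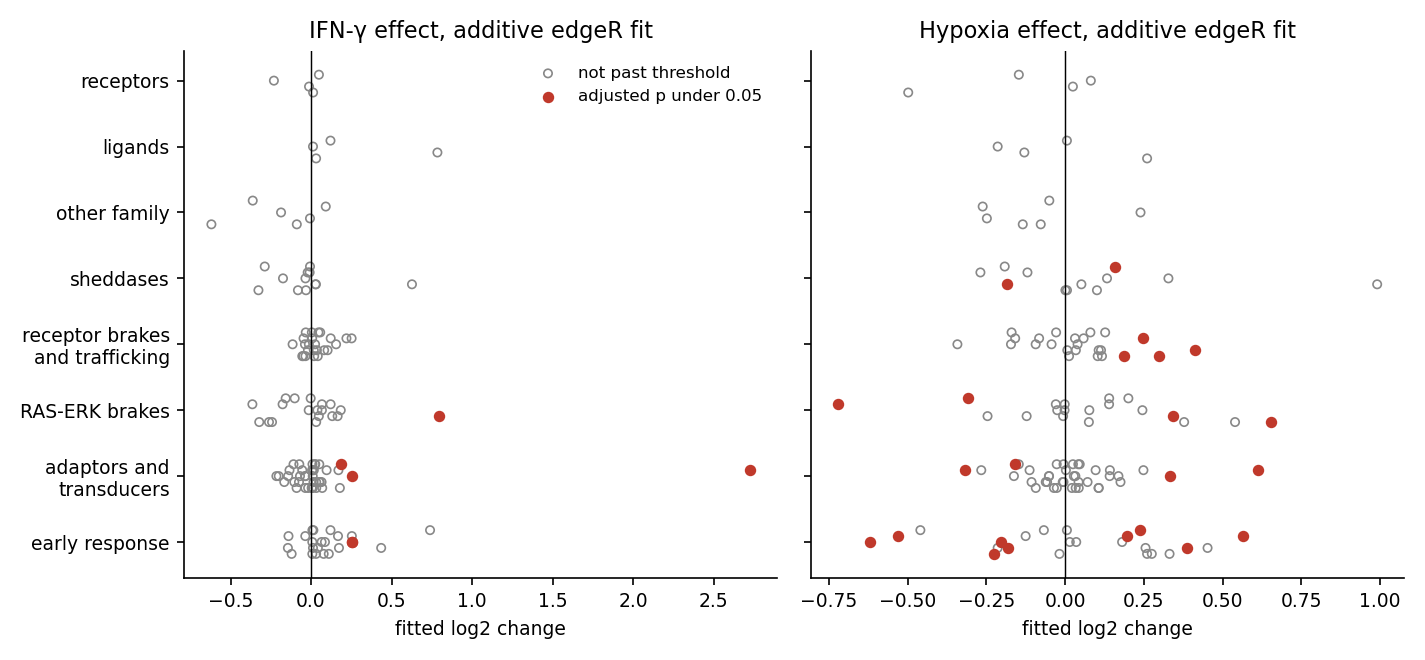
Fitted log2 change of each tested gene with IFN-γ (left) and hypoxia (right) in the additive edgeR fit, by list; filled points have an adjusted p under 0.05 and vertical offsets only separate points. None of the receptors, ligands or other family genes is filled, and the point far to the right with IFN-γ is Shc2 at 2.73.

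Sheddases and their partners release the ligands. With hypoxia 1 of 12 tested rose and 1 fell (16.7%, beside 15.04% of all tested genes). With IFN-γ edgeR called 0 of 12, beside 5.86%. At an unadjusted p under 0.05, edgeR gave 2 with IFN-γ (16.7%, beside 14%) and 5 with hypoxia (41.7%, beside 26.5%). The main EGFR ligand sheddase Adam17 had 3891, 4290, 3789 and 4120 counts and did not pass the threshold with hypoxia, with a log2 change of 0.13 (adjusted p = 0.131 by edgeR). This gene was named after its value was seen. The raised gene was Adam9, with a log2 change of 0.16 (adjusted p = 0.0473 by edgeR, 0.0502 to 0.307 over 7 alternative fits, none past the threshold), and the lowered one was Adam15 at -0.18 (adjusted p = 0.0136 by edgeR, past the threshold in 4 of 7 alternative fits).

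Among 24 tested brakes and traffickers of the receptors, hypoxia raised 4 and lowered 0 (16.7%, beside 15.04% of all tested genes). IFN-γ changed 0 by edgeR, beside 5.86%. At an unadjusted p under 0.05 there were 2 with IFN-γ (8.33%, beside 14%) and 5 with hypoxia (20.8%, beside 26.5%) by edgeR. Cblb encodes a ubiquitin ligase that marks active receptors for breakdown, and had 565, 618, 461 and 746 counts. It was highest with both stimuli and lowest with IFN-γ under normoxia. Its log2 change with hypoxia was 0.13 without IFN-γ and 0.70 with IFN-γ, and 0.41 over both pairs (standard error 0.0987, adjusted p = 0.000563 by edgeR, past the threshold in 4 of 7 alternative fits). Stam, an endosomal sorting gene, rose by 0.30 on the log2 scale (adjusted p = 0.000667 by edgeR, past it in 5 of 7), and the phosphatase gene Ptprj by 0.25 (adjusted p = 0.044 by edgeR, past it in 0 of 7). The log2 change of Ptprj with hypoxia was 0.08 without IFN-γ (95% interval -0.14 to 0.30) and 0.40 with IFN-γ (95% interval 0.20 to 0.61).

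The brakes of RAS-ERK signalling include the dual-specificity phosphatases (Dusp genes), which switch off MAP kinases. Of 19 tested, IFN-γ raised 1 and lowered 0 (5.26%, beside 5.86% of all tested genes). Hypoxia raised 2 and lowered 2 of them (21.1%, beside 15.04%). By edgeR, 4 had an unadjusted p under 0.05 with IFN-γ (21.1%, beside 14%) and 10 with hypoxia (52.6%, beside 26.5%). Dusp10 had 291, 373, 506 and 634 counts, with both IFN-γ libraries above both controls. It was the one raised with IFN-γ, with a log2 change of 0.79 (standard error of 0.112, adjusted p = 7.13e-11 by edgeR, past the threshold in 6 of 7 alternative fits), and it also rose with hypoxia by 0.34 (adjusted p = 0.0196 by edgeR, past it in 4 of 7). Dusp1 had 222, 326, 172 and 291 counts and rose with hypoxia by 0.65 (adjusted p = 0.000117 by edgeR, past it in 5 of 7). Dusp9 had 7120, 5851, 6699 and 5298 counts and fell with hypoxia (log2 change -0.31, adjusted p = 2.42e-06 by edgeR, past it in 6 of 7), as did Dusp2 (log2 change -0.72, adjusted p = 0.00289 by edgeR, past it in 4 of 6 with an adjusted p), which had 80 counts with both stimuli and 119 to 169 elsewhere. The pairs gave -0.40 for Dusp2 without IFN-γ (95% interval -0.91 to 0.11) and -1.07 with IFN-γ (95% interval -1.66 to -0.52). Dusp10, Dusp1 and both lowered genes lost their calls in the edgeR fit without the other stimulus as a term. The hypoxia call of Dusp10 was also lost by DESeq2 and on counts divided by 2, that of Dusp1 also by DESeq2 and that of Dusp2 also on counts divided by 2, while DESeq2 gave no adjusted p for Dusp2.

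Of 39 tested adaptors and transducers, IFN-γ raised 3 and lowered 0 (7.69%, beside 5.86% of all tested genes). Hypoxia raised 2 and lowered 2 of the 39 (10.3%, beside 15.04%). By edgeR, 7 had an unadjusted p under 0.05 with IFN-γ (17.9%, beside 14%) and 8 with hypoxia (20.5%, beside 26.5%). Shc2, an adaptor of receptor kinases, had 22, 14, 98 and 142 counts, far more in both IFN-γ libraries. IFN-γ raised it by 2.73 on the log2 scale in the additive fit (standard error of 0.308, adjusted p = 7.53e-17 by edgeR, past the threshold in 7 of 7 alternative fits), the largest of any pathway gene tested. The pairs gave 2.14 for Shc2 under normoxia (95% interval 1.21 to 3.26) and 3.31 under hypoxia (95% interval 2.24 to 4.72), a difference of 1.17 whose 95% Poisson interval on counts divided by 2, -0.30 to 2.63, included 0. Map2k1, which encodes the ERK kinase MEK1, had 4839 and 5321 counts in the normoxic and 7673 and 7839 in the hypoxic libraries. The fitted hypoxia effect on Map2k1 was 0.61 on the log2 scale (standard error of 0.057, adjusted p = 9.64e-25 by edgeR, past it in 7 of 7), while its close relative Map2k2 fell by 0.16 on the log2 scale (adjusted p = 0.0409 by edgeR, past it in 2 of 7). Nras rose with IFN-γ by 0.19 (adjusted p = 0.03 by edgeR, past it in 2 of 7) and Plcg2 fell with hypoxia (log2 change -0.32, adjusted p = 6.39e-05 by edgeR, past it in 6 of 7).

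The early response list holds 23 genes that growth factors switch on within hours, Areg, Ereg and Hbegf among them. Hypoxia raised 4 and lowered 5 of the 23, which is 39.1% beside 15.04% of all tested genes, and no member was among them. Without the IFN-γ term edgeR left 1 raised and 0 lowered (4.35%, beside 1.3% of all tested genes in that fit). DESeq2 gave 3 raised and 2 lowered of 18 with an adjusted p (27.8%, beside 5.43%), and the edgeR fit on counts divided by 2 gave 3 and 2 of the 23 (21.7%, beside 6.42%). In the main edgeR fit, 7 had an unadjusted p under 0.05 with IFN-γ (30.4%, beside 14%). With hypoxia there were 12, Areg among them (52.2%, beside 26.5%). Fosl2 (2069, 2972, 1806 and 2746 counts) rose by 0.57 on the log2 scale (adjusted p = 1.33e-14 by edgeR), Ier3 by 0.39 (adjusted p = 4.32e-12 by edgeR) and Junb by 0.24 (adjusted p = 0.000674 by edgeR). Ier5 (1118, 697, 1272 and 860 counts) fell with hypoxia, with a log2 change of -0.62 (adjusted p = 6.65e-12 by edgeR), as did Egr1 at -0.53 (adjusted p = 0.000281 by edgeR) and Ier2 at -0.23 (adjusted p = 0.0163 by edgeR). For Egr1 the change was -0.82 without IFN-γ (95% interval -1.16 to -0.49) and -0.27 with IFN-γ (95% interval -0.56 to 0.03). Their difference was 0.56, and 1.40% of the 10443 tested genes whose lowest library had 100 counts or more had one as large in size. Only Fosl2 of these 6 passed the threshold in 7 of 7 alternative fits, Egr1 and Ier2 in 4 and the other 3 in 6. IFN-γ raised 2 of the 23 (8.70%, beside 5.86% of all tested genes). They were Ccnd1 at 0.26 (adjusted p = 9.09e-06 by edgeR, past it in 6 of 7) and Ier5 at 0.25 (adjusted p = 0.0376 by edgeR, past it in 0 of 7). The rule for genes most like a member in pattern asked for a called member, so it named none.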

How the data were processed

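MC38 cells were sequenced on a DNBSEQ instrument as poly-A selected, strand-specific paired-end libraries, 1 per condition. Per the methods, reads were aligned with HISAT2, and the submitters' processing notes name featureCounts and the build mm10, with no version. The authors deposited 1 table of whole-number counts per gene for the 4 libraries, neither normalised nor filtered, and how mates, strand and reads matching several genes were counted is not given in the sources used here. Gene symbols came from RefSeq (GRCm38.p6) and matched 25275 of 27179 gene IDs.

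From these counts edgeR 4.0.16 in R 4.3.3 fitted the additive model (TMM factors from 0.993 to 1.01, filter at its default minimum of 10 counts, glmQLFit and glmQLFTest, Benjamini-Hochberg threshold of 0.05). The code of the fit was run on simulated counts with an IFN-γ effect in some genes and no oxygen effect. That run did not cover departures from additivity. Dispersion pooled to 0.00222 (coefficient of variation 4.71%). Intervals, shares and motif matches were computed in Python 3.11.15 with scipy 1.17.1 and pandas 2.3.3, and transcript lengths came from GENCODE vM21. Alternatives were DESeq2's size factors and Wald test (DESeq2 1.42.0), total counts, other filters, a threshold of 0.01, a fit without the other stimulus, each pair alone, 5 counts added and mean transcript length. Counts divided by 2, and the alternatives for pathway genes, were added after seeing the data.

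Named genes are the members, all other family genes, the treatment checks and markers, and from each other list up to 3 genes with the largest log2 change per direction and stimulus among those called with the same sign in both pairs. A named gene of the adaptor and transducer list is counted but not reported here. The members and lists were chosen with earlier results of these data known. A planned search of the ligand proteins for the EGF-like motif was not run. Intervals and floors cover counting error only.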

Additional observations from a re-analysis of the deposited data

Results flagged for a closer look

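In 2 of 41 genes checked (19 members and other family genes and 22 named genes of the pathway lists), the IFN-γ changes under normoxia and hypoxia went opposite ways with both 95% counting intervals on the deposited counts excluding 0. Over all 141 members and pathway genes there were 6, the others being Epn1, Spred2, Nf1 and Etv5, which were named after their values were seen, with differences (hypoxic minus normoxic) of 0.36, 0.19, 0.25 and 0.32. Of all 13580 tested genes 5.11% met the same condition, so these counts are near the share of all genes. For Ereg the change was 0.28 (interval 0.09 to 0.47) under normoxia and -0.27 (interval -0.47 to -0.07) under hypoxia, a difference of -0.55. On counts divided by 2 the second interval reached 0.01. For Cblb the change was -0.28 (interval -0.46 to -0.10) under normoxia and 0.28 (interval 0.13 to 0.44) under hypoxia, a difference of 0.56, and both intervals excluded 0 on counts divided by 2 as well. Differences as large in size were found in 1.45% and 1.27% of the 10443 genes whose lowest library had 100 counts or more. With 1 library per condition, neither difference was tested.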

How the results depend on the processing

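No alternative called a member: the 4 counts of raised and lowered members were 0 in each of the 7 alternative fits and at an adjusted p under 0.01. For the members' log2 changes, 135 alternative values kept direction and side of the threshold or, for a pair alone, held the fitted value within the pair's interval. Opposite in sign to the fitted change were 3 of 110 values from the other fits and 8 of 32 from a pair alone. For the IFN-γ change, total counts gave -0.0045 for Egfr and -0.0048 for Ereg. Without a filter on low counts the hypoxia change of Hbegf was -0.0037. The IFN-γ change of Hgf, which is not a member and not in these numbers, was 0.0029 in that fit. The hypoxic pair alone gave IFN-γ changes of -0.27 for Ereg, -0.16 for Egfr, 0.03 for Erbb2, -0.0019 for Met and -0.0016 for Areg. The control pair alone gave hypoxia changes of 0.06 for Ereg, -0.02 for Erbb2 and -0.01 for Hbegf. The cause was not tested.

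Counts of pathway genes moved more, under alternatives applied to them after seeing the data. Raised with IFN-γ were 3 by DESeq2, 1 without the oxygen term and 3 on counts divided by 2, and lowered was 1 with total counts. Raised with hypoxia were 5 by DESeq2, 2 without the IFN-γ term, 7 on counts divided by 2 and 8 at 0.01. Lowered with hypoxia were 4, 0, 4 and 6 in the same order. Of the early response genes, IFN-γ raised 1 in every alternative but the fit without the oxygen term, which gave 0, and lowered 1 with total counts. Hypoxia raised 1 without the IFN-γ term, and lowered 2 by DESeq2, 0 without that term, 2 on counts divided by 2 and 3 at 0.01. No paired analysis was possible because each group holds 1 library, which leaves no replicate pairs. The additive fit compares libraries within each level of the other stimulus, and the fit without that term is the version without this block. Depth limits Tgfa (0 counts) and Epgn (2 to 7) most, which were not tested, then Btc and Egfr among the tested members, and the lack of replicates limits every p-value.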
